A study of Rattus norvegicus with 19 samples.

Results

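Genes that mark the subfields of the hippocampus, and genes of the thalamus and cortex that lie next to it, were followed library by library in the hippocampus of rats with a deletion, a duplication or both of the segment that corresponds to human 16p11.2. The members were chosen by gene symbol as known regional markers, for their use as a gauge of dissection. The rule names no measured value, but it was made with earlier results of these data known. Of 38 listed genes, 35 were in the count files by symbol, where 32623 genes are listed, and 31 held enough reads to be tested among 15440 tested genes. Dock10, Map3k15 and Calb3 were not found by symbol. The 31 tested genes were 6 of the dentate gyrus, 4 of CA1, 4 of CA3, 4 of CA2, 1 of the subiculum, 2 vesicular glutamate transporters, 2 of the thalamus, 6 of the cortex and 2 transcription factors of broad range in hippocampus or striatum.

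Hippocampi came from 19 male Sprague Dawley rats, an outbred stock, and each was sequenced as 1 RNA library. The wt group (6 rats) held 2 copies of the interval, Del/+ (4 rats) held 1 copy, Dup/+ (5 rats) held 3 copies, and Del/Dup (4 rats, replicates 2 to 5) carried the deletion on one chromosome and the duplication on the other, with 2 copies in all. The deletion and the duplication were made with CRISPR/Cas9 and the wt rats were littermates, so that every cell of a carrier holds the change. No drug or other treatment is labelled, and the labels give no age. One library, wt replicate 5, has wt in its description but Dup/+ in its genotype field, and was counted here as wt.

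The hippocampus is a folded sheet of excitatory neurons in which granule cells of the dentate gyrus contact CA3 pyramidal cells, CA3 and CA2 cells contact CA1, and CA1 contacts the subiculum. Each subfield keeps its own set of transcription factors, adhesion molecules and signalling proteins, so that a piece of tissue cut with more or less of one end of the structure carries more or less of these transcripts. The cortex lies above the hippocampus, the thalamus beneath it, and the choroid plexus along its edge. In bulk tissue, fewer cells of one type and less RNA per cell cannot be told apart.

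Libraries held 16191192 to 38760645 reads assigned to genes. The share of counted lines that belonged to multi-mapped reads was 40.06% to 50.5% in wt, Dup/+ and Del/+ replicate 4, and 57.79% to 76.28% in Del/+ replicates 1 to 3 and all 4 Del/Dup libraries, so that this share and genotype cannot be told apart for most Del/+ and all Del/Dup libraries. Mapk3, a kinase gene inside the interval, followed the labels, with 41.0 to 60.9 CPM (read counts scaled to the reads in genes of each library, with TMM factors) in Del/+, 88.5 to 98.4 in wt and 129 to 154 in Dup/+, and wt replicate 5, with conflicting labels, held 92.7 CPM of Mapk3. The 6 neuron markers of a check list, most of them of excitatory forebrain neurons, summed to 3352 to 4107 CPM over all libraries, and their mean log2 deviation from wt was -0.26 to -0.09 in Del/+ and -0.40 to -0.00 in Del/Dup. In Del/+ against wt 4 of the 6 were lower (Neurod2 by -0.46) and 1 higher (Snap25 by 0.25) at an unadjusted p under 0.05, beside 18.4% of all tested genes, and in Del/Dup 2 were lower, with 0 called by edgeR in either. The sum of 14 tested choroid plexus genes was 99.93 to 162.2 CPM in wt. That sum reached 1774 CPM in Del/+ (lowest 120.8), 641.2 in Dup/+ (lowest 121.2) and 1683 in Del/Dup (lowest 178.8). Of the fixed lists, Otx2 of the choroid plexus and Cldn5 of blood vessels were listed at 0 in every library, which does not show that the transcripts are absent.

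Marker levels varied widely between animals. In Del/+ Prkcd, Slc17a6, Etv1, Tcf7l2 and Coch were higher than in wt at an unadjusted p under 0.05 (edgeR). Lower at that threshold were Slc17a7, Nectin3, Bok, C1ql2, Plk5 and Prox1. None of them passed after adjustment. No member differed from wt at an adjusted p under 0.05 (edgeR quasi-likelihood test, Benjamini-Hochberg over all genes) in Del/+, in Dup/+ or in Del/Dup, where 0.771%, 0.272% and 0.0907% of all tested genes passed. At an unadjusted p under 0.05, 11 of 31 members (35.5%) differed in Del/+, 5 higher and 6 lower, beside 18.4% of all tested genes. The same threshold was met by 6 members (19.4%) in Dup/+, beside 8.94% of all genes, and by 7 (22.6%) in Del/Dup, beside 16.2%. The median log2 fold change of the members was -0.05 in Del/+, -0.00 in Dup/+ and -0.03 in Del/Dup, and that of all tested genes was 0.00, -0.00 and 0.00. DESeq2, run as an alternative, called 4 members in Del/+ (Prkcd, Slc17a6, Slc17a7 and Etv1), 0 in Dup/+ and 2 in Del/Dup (Coch and Slc17a7). Over all genes DESeq2 called 626 in Del/+, 77 in Dup/+ and 179 in Del/Dup. In 6 other fixed lists (mossy cells, CA1, CA3, CA2, subiculum and other cell types) edgeR called 0 genes against wt. At an unadjusted p under 0.05 in Del/+, 1 of 3 mossy cell genes and the 1 CA1 gene were higher, 2 of 4 CA3 genes were lower, 0 of 5 CA2 genes and 0 of 1 subiculum gene passed, and of 7 genes of other cell types 2 were higher and 2 lower. A p above the threshold does not show that levels were alike.

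**Figure D1:**
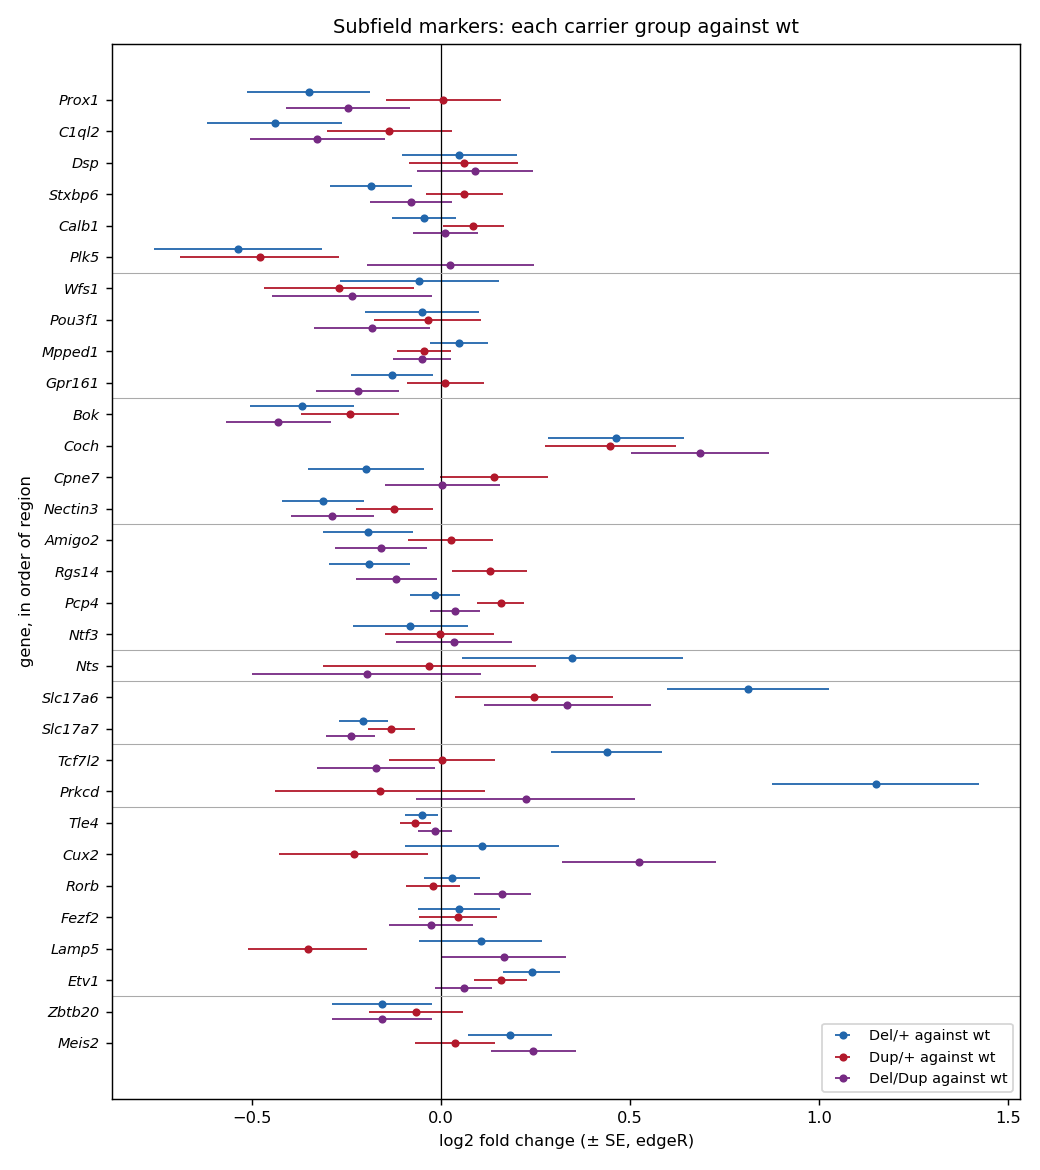
Log2 fold change against wt, with its standard error from edgeR, for the 31 tested markers in order of region, for Del/+, Dup/+ and Del/Dup. Prkcd in Del/+ lies farthest from 0, at 1.15, and Coch lies above 0 in each of the 3 carrier groups, which share the wt libraries.

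The one call was between the carriers. Against Dup/+, 1 member was called higher in Del/+ and 0 lower, beside 0.784% of all tested genes called in that comparison, and this member was Prkcd. Of the 31 members, 9 (29.0%) passed an unadjusted p of 0.05 there, 4 higher and 5 lower in Del/+, beside 13.5% of all genes. Across the 4 groups 0 members were called by edgeR, beside 0.823% of all genes, and 12 (38.7%) passed an unadjusted p of 0.05, beside 18.9%. There DESeq2 called 4 members and 702 genes in all. Between Del/+ and Del/Dup, a comparison added after the data had been seen, 0 were called beside 0.175% of all genes, and 4 passed the unadjusted threshold beside 8.48%. DESeq2 called 0 members there as well, and 74 genes in all.

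**Figure D2:**
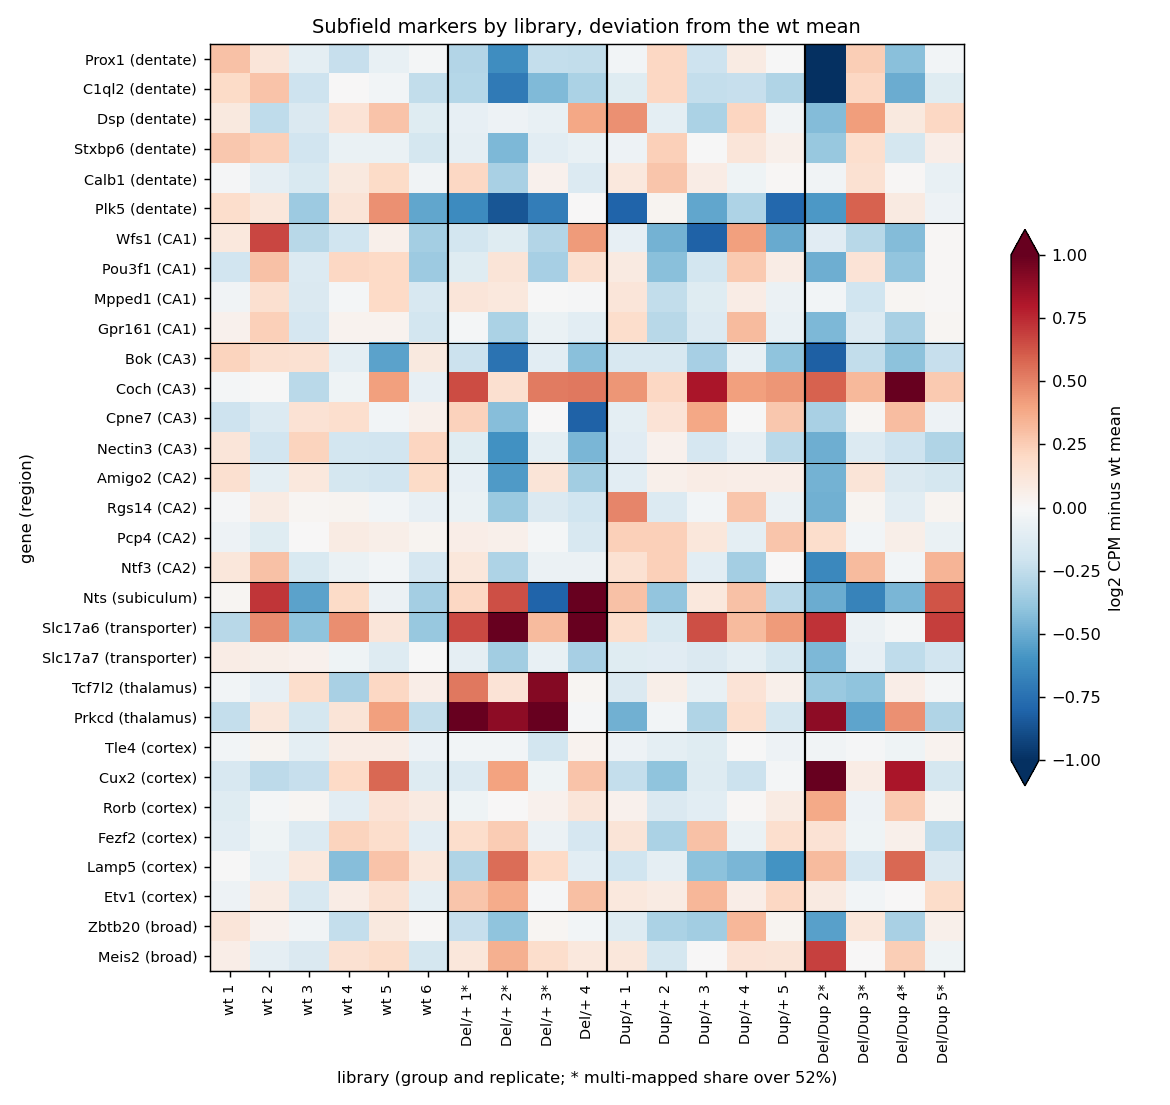
Log2 CPM of each tested marker minus its wt mean, with 1 column per library and 1 row per gene in order of region, and an asterisk for a multi-mapped share over 52%. Blue cells gather in the dentate, CA3 and CA2 rows of Del/+ replicate 2 and Del/Dup replicate 2, and red cells in the Prkcd row of Del/+ replicates 1 to 3.

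Prox1 encodes the homeobox factor that sets and keeps granule cell identity. Its level ran from 136 to 195 CPM over the 6 wt libraries, with a median of 154. In Del/+ replicates 1 to 4 it was 129.9, 103, 135 and 134 CPM. Every Del/+ library thus lay below the lowest wt library, by a gap of 135 to 136 CPM that closed when scaled by library size alone. The Dup/+ libraries held 156, 183, 138, 168 and 159 CPM, and the Del/Dup libraries 76.8, 189, 119 and 156 CPM. The Del/Dup group spanned both the lowest library of all 19 and a level near the highest, so that its mean of 135 ± 48.2 CPM (SD, n = 4) describes no single animal. The log2 fold change was -0.35 ± 0.16 (SE) in Del/+ with an adjusted p of 0.257 in edgeR, 0.01 ± 0.15 in Dup/+ and -0.25 ± 0.16 in Del/Dup.

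C1ql2, a secreted C1q-family protein that granule cells place at mossy fibre synapses, went the same way. In wt it ran from 76.0 to 110 CPM with a median of 89.3. The Del/+ libraries held 74.2, 55.2, 66.3 and 72.6 CPM, all below the lowest wt library with TMM scaling. The Dup/+ libraries held 82.9, 104, 76.3, 77.1 and 73.3 CPM and the Del/Dup libraries 39.8, 104, 64.1 and 82.9 CPM. The log2 fold change in Del/+ was -0.44 ± 0.18 with an adjusted p of 0.193 in edgeR. Prox1 and C1ql2 were the 2 members of 31 whose Del/+ and wt ranges did not overlap, a pattern seen in 4.94% of all tested genes, and 0 members had such a gap in Dup/+ against wt (1.17% of all genes), in Del/Dup against wt (2.56%) or in Del/+ against Del/Dup (4.37%). Against Dup/+, 2 members, Prox1 and Stxbp6, had Del/+ ranges wholly below those of Dup/+, beside 5.3% of all genes with such a gap. These gaps depend on the scaling: by library size alone 0 members were separate in Del/+ against wt (4.66% of all genes), 1, Prox1, against Dup/+ (4.81%) and 1, Tcf7l2, against Del/Dup (3.83%).

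The remaining dentate genes were less uniform. Plk5, of the polo-like kinase family, stood at 6.26, 5.33, 5.98 and 9.73 CPM in Del/+ and at 5.53, 9.90, 6.75, 7.81 and 5.62 CPM in Dup/+, against 6.77 to 13.4 in wt. Its log2 fold change was -0.54 ± 0.22 in Del/+ and -0.48 ± 0.21 in Dup/+, with adjusted p of 0.204 and 0.519 in edgeR, while Del/Dup was at 0.02. Del/+ replicate 4, the one Del/+ library with a low multi-mapped share, lay inside the wt range for Plk5, and in a fit restricted to libraries of low share, where Del/+ is this 1 library, the difference was -0.04. Stxbp6, which binds SNARE proteins, and Calb1, the calcium buffer calbindin, had log2 fold changes between -0.19 and 0.08 in the 3 carrier groups. Dsp, which encodes the junction protein desmoplakin, had values between 0.05 and 0.09. Tdo2, Lct and Iyd, the last listed for CA3, were too low to test, with 14, 49 and 46 reads in all 19 libraries, and Fibcd1, listed for CA1, was listed at 0 reads in every library.

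Averaged over the 6 tested dentate genes, the deviation from the wt mean was -0.19 to 0.17 on the log2 scale in wt libraries and -0.20 to 0.14 in Dup/+ libraries. In Del/+ it was -0.19, -0.50, -0.25 and -0.06 for replicates 1 to 4, and in Del/Dup -0.61, 0.30, -0.15 and -0.00 for replicates 2 to 5. A further 4 dentate genes (Trpc6, Ablim3, Maml2 and Fam163b) gave -0.20, -0.32, -0.24 and -0.13 in Del/+ and -0.47, 0.19, -0.23 and -0.06 in Del/Dup, beside -0.18 to 0.23 in wt. The 2 libraries lowest in dentate genes were highest in a separate list of 7 tested cortical genes, at 0.97 in Del/+ replicate 2 and 1.19 in Del/Dup replicate 2, beside -0.36 to 0.29 in wt. Whether the cut of the tissue has a part in the dentate levels was not tested.

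**Figure D3:**
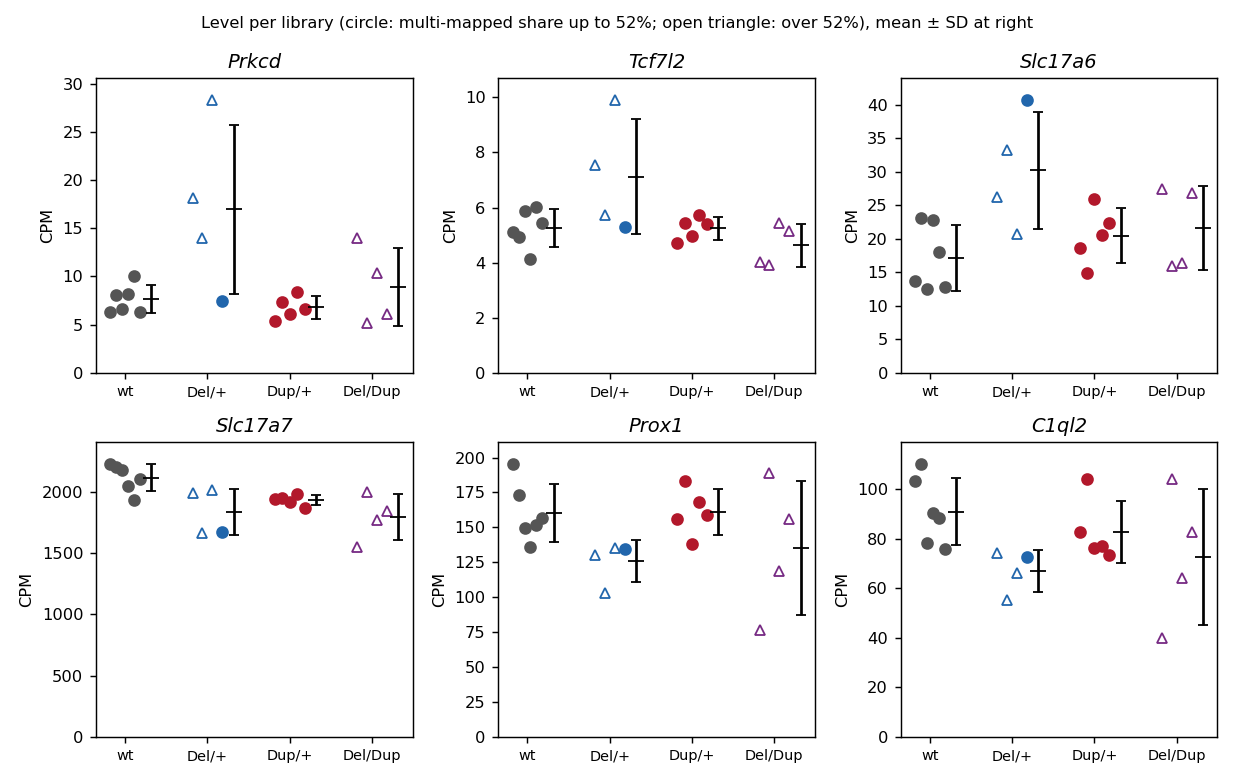
CPM in each library for Prkcd, Tcf7l2, Slc17a6, Slc17a7, Prox1 and C1ql2, by group, with the mean ± SD to the right of each group, circles for a multi-mapped share up to 52% and open triangles for more. For Prox1 and C1ql2 all 4 Del/+ libraries lie below the 6 wt libraries with the TMM scaling drawn, though not by library size alone, and for Prkcd and Tcf7l2 the one Del/+ circle lies among the wt circles.

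None of the 4 tested CA1 genes was called by edgeR in any carrier group, and in Del/Dup all 4 had negative log2 fold changes, with a median of -0.20. Wfs1, an endoplasmic reticulum membrane protein of CA1 pyramidal cells, spanned 264.5 to 532 CPM in wt. Its Del/+ libraries spanned 274 to 451 CPM, its Dup/+ libraries 191 to 445 CPM and its Del/Dup libraries 248 to 337 CPM. Its groups overlapped throughout, and its log2 fold changes of -0.06 ± 0.21, -0.27 ± 0.20 and -0.24 ± 0.21 in Del/+, Dup/+ and Del/Dup had edgeR adjusted p of 0.913, 0.719 and 0.595. Mpped1, which encodes a metallophosphoesterase domain protein, was steadier, at 216.7 to 294.6 CPM over all libraries and at log2 fold changes between -0.05 and 0.05 in the carrier groups. Pou3f1, a POU-domain transcription factor, ran from 28.0 to 48.4 CPM and Gpr161, a receptor of the primary cilium, from 32.9 to 56.2 CPM. Their largest difference from wt was -0.22 ± 0.11, for Gpr161 in Del/Dup (edgeR, adjusted p of 0.323).

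Of the CA3 genes, Coch and Bok had differences from wt of opposite sign, none of them called by edgeR in all 19 libraries. Coch, which encodes the extracellular matrix protein cochlin, ran from 2.45 to 3.96 CPM in wt with a median of 2.90. It stood at 4.71, 3.32, 4.26 and 4.30 CPM in Del/+, at 4.05, 3.43, 5.26, 3.96 and 4.04 CPM in Dup/+, and at 4.49, 3.72, 7.60 and 3.57 CPM in Del/Dup. The wt range overlapped that of each carrier group through wt replicate 5, at 3.96 CPM. Against wt the log2 change of Coch was 0.46 ± 0.18 in Del/+, 0.45 ± 0.17 in Dup/+ and 0.68 ± 0.18 in Del/Dup, with edgeR adjusted p of 0.178, 0.471 and 0.138. In Del/Dup the difference was called by DESeq2 (0.70, adjusted p of 0.0373) and by edgeR without Del/Dup replicate 3 (0.79, adjusted p of 0.0449). The 3 comparisons rest on the same wt libraries. With wt replicate 5 counted as Dup/+, Coch differed from wt by 0.78 in Del/Dup (edgeR, adjusted p of 0.0627) and was still not called.

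Bok, a member of the Bcl-2 family of cell death regulators, ran from 41.6 to 70.7 CPM in wt with a median of 66.0. It was 52.2, 36.3, 56.1 and 45.2 CPM in Del/+ and 34.3, 50.9, 45.5 and 51.4 CPM in Del/Dup. The wt range overlapped both through wt replicate 5 alone, whose labels conflict, at 41.6 CPM, since the other wt libraries held 56.65 CPM or more. Relative to wt, Bok differed by -0.37 ± 0.14 in Del/+ and -0.43 ± 0.14 in Del/Dup (edgeR, adjusted p of 0.161 and 0.174), and -0.24 in Dup/+. Without wt replicate 5 the differences were -0.46 and -0.52 (edgeR, adjusted p of 0.0691 and 0.0508) in Del/+ and Del/Dup. That fit removes the one wt value that goes against the difference. The Mapk3 level of wt replicate 5, 92.65 CPM, lay among those of the other wt libraries. Nectin3, a cell adhesion molecule of CA3 synapses, ran from 36.5 to 48.5 CPM in wt and from 27.3 to 38.9 in Del/+, with log2 fold changes of -0.31 ± 0.11 in Del/+ and -0.29 ± 0.11 in Del/Dup (edgeR, adjusted p of 0.135 and 0.219). Cpne7, a calcium-dependent membrane-binding copine, was lowest in Del/+ replicate 4 at 67.6 CPM, beside 102.5 to 133 in wt and 139, 88.1 and 119 in the other Del/+ libraries, and its difference from wt over all 4 was -0.20 ± 0.15.

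None of the 4 tested CA2 genes was called by edgeR against wt, and their mean deviation from wt was -0.30 to 0.01 in Del/+ and -0.36 to 0.11 in Del/Dup beside -0.05 to 0.05 in wt. Rgs14, a regulator of G protein signalling that limits synaptic plasticity in CA2, ran from 104 to 117 CPM in wt, and Del/+ held 106, 85.2, 99.9 and 96.2 CPM. Dup/+ replicates 1 and 4 were above all wt libraries at 155 and 134 CPM, while the other 3 were at 101, 108 and 106 CPM. Between Del/+ and Dup/+ Rgs14 differed by -0.32 ± 0.11 and Pcp4, a small calmodulin-binding protein, by -0.17 ± 0.07, neither of them called (edgeR, adjusted p of 0.211 and 0.278). Against wt, Pcp4 in Dup/+ differed by 0.16 ± 0.06 (unadjusted p of 0.0206, edgeR, adjusted p of 0.480). Amigo2, an adhesion protein, and Ntf3, the growth factor neurotrophin-3, differed from wt by between -0.19 and 0.03 in the carrier groups.

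Nts, the neuropeptide neurotensin and the one subiculum gene listed, had the largest spread within groups of any member. It ran from 17.1 to 40.6 CPM in wt and held 28.7, 38.8, 14.2 and 50.2 CPM in Del/+, 30.3, 18.8, 26.7, 30.4 and 20.5 CPM in Dup/+, and 17.6, 15.6, 18.1 and 38.3 CPM in Del/Dup. The lowest and the highest of the 19 libraries, 3.53-fold apart, were both Del/+. The log2 fold changes of 0.35 ± 0.29, -0.03 ± 0.28 and -0.20 ± 0.30 had edgeR adjusted p of 0.563, 0.990 and 0.775.

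The 2 vesicular glutamate transporters load glutamate into synaptic vesicles. Slc17a7 (VGLUT1) is the form of hippocampal and cortical neurons, and Slc17a6 (VGLUT2) that of thalamic and other subcortical neurons and of the subiculum. Slc17a6 ran from 12.5 to 23.1 CPM in wt with a median of 15.9, and held 26.2, 33.2, 20.7 and 40.7 CPM in Del/+. Of the 4 Del/+ libraries 3 lay above all wt libraries, including replicate 4, whose multi-mapped share was low. Dup/+ held 18.7, 14.9, 25.9, 20.6 and 22.3 CPM and Del/Dup 27.4, 15.9, 16.4 and 26.8 CPM. The log2 fold change in Del/+ was 0.81 ± 0.21 with an edgeR adjusted p of 0.0718. With a term for the multi-mapped share it was 1.24 (edgeR, adjusted p of 0.07175) and was not called. The fit restricted to libraries of low share, which was not planned, also gave 1.24. There Del/+ has 1 library and is assumed to vary like the others. Against Dup/+ the difference was 0.57 ± 0.22 (edgeR, adjusted p of 0.275).

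Slc17a7 ran from 1933 to 2226 CPM in wt, and was 1990, 1664, 2013 and 1676 CPM in Del/+, 1946, 1953, 1917, 1979 and 1868 CPM in Dup/+, and 1550, 1999, 1774 and 1848 CPM in Del/Dup. Its groups overlapped, though every carrier library was below the wt mean of 2117 CPM. The log2 fold change was -0.21 ± 0.07 in Del/+, -0.13 ± 0.06 in Dup/+ and -0.24 ± 0.07 in Del/Dup, with edgeR adjusted p of 0.112, 0.546 and 0.139.

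Prkcd, protein kinase C delta, a marker of thalamic relay neurons, was the member with the widest range, 5.46-fold between its lowest and highest library. In wt it ran from 6.33 to 10.0 CPM with a median of 7.38, and in Dup/+ it was 5.37, 7.37, 6.09, 8.43 and 6.65 CPM. In Del/+ replicates 1, 2 and 3 held 18.1, 14.0 and 28.3 CPM, and replicate 4 held 7.44 CPM. The first 3 lay above every wt and Dup/+ library and the last lay among them. Del/Dup held 14.0, 5.18, 10.3 and 6.07 CPM, so that replicates 2 and 4 were above all wt libraries and replicates 3 and 5 below them.

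The log2 difference of Prkcd was 1.31 ± 0.29 between Del/+ and Dup/+ (edgeR, adjusted p of 0.0367) and 1.15 ± 0.27 between Del/+ and wt (adjusted p of 0.0556), and it was -0.16 ± 0.28 in Dup/+ and 0.22 ± 0.29 in Del/Dup against wt. The call rests on Del/+ replicates 1 to 3, the Del/+ libraries of high multi-mapped share. Replicate 4 alone, in the fit restricted to libraries of low share, differed from Dup/+ by 0.13 (adjusted p of 0.866) and from wt by -0.03, and a term for the share gives nearly the same values because Del/+ is the one group with both classes. Over single libraries left out, the adjusted p ran from 0.00286 without Del/+ replicate 4 to 0.117 without Del/+ replicate 3, which took the difference to 0.94. The replicate block gave 1.30 (adjusted p of 0.113), and counting wt replicate 5 as Dup/+ gave 1.196 (adjusted p of 0.0512).

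Tcf7l2, a Wnt-pathway transcription factor of thalamic neurons, was highest in Del/+ replicates 3 and 1, as Prkcd was. It ran from 4.14 to 6.02 CPM in wt and held 7.54, 5.74, 9.90 and 5.29 CPM in Del/+. Replicates 1 and 3 were above all wt libraries, replicates 2 and 4 were inside the wt range, and no Dup/+ library exceeded 5.74 CPM and no Del/Dup library 5.45 CPM. The log2 fold change in Del/+ was 0.44 ± 0.15 (edgeR, adjusted p of 0.124), and that of replicate 4 alone, in the fit on libraries of low share, was 0.01. Against Del/Dup, Tcf7l2 differed by 0.61 ± 0.17 and Prkcd by 0.93 ± 0.31 (edgeR, adjusted p of 0.216 and 0.363), and among the libraries of high multi-mapped share alone Prkcd differed by 1.17.

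Another list of thalamic genes, 13 of them tested, was also highest in these 2 libraries. Its mean deviation from wt was 0.37, 0.07, 0.52 and -0.08 in Del/+ replicates 1 to 4, beside -0.06 to 0.07 in wt, and its summed level spanned 355.3 to 436.1 CPM in Del/+ beside 349.8 to 407.4 CPM in wt. The sums of the Dup/+ libraries were 336.6 to 382.8 CPM and those of the Del/Dup libraries 331.7 to 378.5 CPM, where the mean deviation was -0.00 to 0.25. Of the 13, 5 were higher and 0 lower in Del/+ against wt at an unadjusted p under 0.05, beside 18.4% of all tested genes in either direction, and 0 were called by edgeR. Rora, a nuclear receptor gene of that list, was called between Del/+ and Dup/+ at 0.53 (edgeR, adjusted p of 0.0205), with 18.1 to 23.6 CPM in Del/+ and 12.9 to 16.1 in Dup/+. The choroid plexus genes summed to 120.8 and 148.6 CPM in Del/+ replicates 1 and 2, inside the wt range, where Prkcd was 18.1 and 14.0 CPM, and to 1774 in replicate 3, where it was 28.3 CPM. In replicate 4 the choroid plexus gene Ttr had a log2 CPM of 6.35, beside 4.78 at most in wt, and Prkcd was 7.44 CPM. The part of adjoining thalamic tissue in the Prkcd and Tcf7l2 levels was not tested.

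Of the 6 cortical genes, Cux2 and Rorb were highest in Del/Dup replicates 2 and 4. Cux2, a homeobox factor of upper cortical layers, held 63.6, 30.5, 51.2 and 25.7 CPM in Del/Dup, while wt libraries reached 43.3, Del/+ libraries 38.4 and Dup/+ libraries 28.6 CPM at most. Replicates 2 and 4 were above every other library and replicates 3 and 5 were not, and the log2 fold change of 0.52 ± 0.20 had an edgeR adjusted p of 0.226. In the same 2 libraries Lamp5, a membrane protein of cortical interneurons and upper layers, was 58.4 and 69.7 CPM beside 34.8 to 57.0 in wt and 68.8 in Del/+ replicate 2, and Rorb, a nuclear receptor of layer 4, was 35.7 and 32.9 CPM beside 25.2 to 30.1 in wt. In Dup/+ Lamp5 was 40.8, 43.95, 35.1, 34.1 and 31.0 CPM, and differed by -0.35 ± 0.16 from wt and by 0.46 ± 0.17 in Del/+ against Dup/+ (edgeR, adjusted p of 0.523 and 0.243).

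Meis2, a homeobox factor of striatal and other forebrain neurons, was 51.5 and 37.9 CPM in Del/Dup replicates 2 and 4, 32.1 and 31.2 in replicates 3 and 5, 41.0 in Del/+ replicate 2 and 28.4 to 36.4 in wt. Zbtb20, a zinc finger factor of hippocampal pyramidal and granule cells, was 125 and 144 CPM in Del/Dup replicates 2 and 4, below the wt range of 154 to 197 CPM, and 196 and 188 CPM in replicates 3 and 5. The separate cortical list deviated by 1.19 and 0.48 in replicates 2 and 4 and by 0.08 and 0.11 in replicates 3 and 5, beside 0.97 in Del/+ replicate 2, with 5 of its 7 tested genes higher and 1 lower in Del/Dup at an unadjusted p under 0.05, beside 16.2% of all tested genes, and 0 called by edgeR. A list of 11 striatal genes deviated by 0.96, 0.11, 0.57 and -0.03 in replicates 2 to 5, and the choroid plexus sum was 1683, 250.4, 871.6 and 178.8 CPM. The part of these tissues in the Del/Dup levels was not tested.

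Etv1, an ETS factor of layer 5, ran from 128 to 160 CPM in wt and held 174, 186, 143 and 177 CPM in Del/+, where 3 libraries were above all wt libraries (log2 fold change 0.24 ± 0.07, edgeR, adjusted p of 0.106). In Dup/+ Etv1 was 155, 152, 180.5, 150.4 and 166 CPM, with replicates 3 and 5 above all wt libraries, and differed from wt by 0.16 ± 0.07 (adjusted p of 0.523). Del/+ and Dup/+ differed by 0.08 ± 0.08 for Etv1 (edgeR, adjusted p of 0.701). Fezf2, which specifies subcortical projection neurons, ran from 22.6 to 34.5 CPM in all libraries and had log2 fold changes between -0.03 and 0.05. Tle4, a corepressor of deep-layer neurons that the hippocampus also expresses, stayed between 76.8 and 91.9 CPM in all 19 libraries, a 1.197-fold range.

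Spread within groups was wide for most of these genes at their level. The median SD of log2 CPM within groups was 0.246 for the 31 members and 0.135 for all tested genes. Ranked among genes of the same decile of level, 30 members lay above the 50th percentile of that SD, 29 above the 75th and 21 above the 90th, as a description with no test. Nts (0.53), Prkcd (0.51), Slc17a6 (0.39), Plk5 (0.39), Wfs1 (0.36), Cux2 (0.36), C1ql2 (0.32), Coch (0.30) and Prox1 (0.30) had the largest values. Tle4, at 0.06 and the 29.0th percentile, was the exception.

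**Figure D4:**
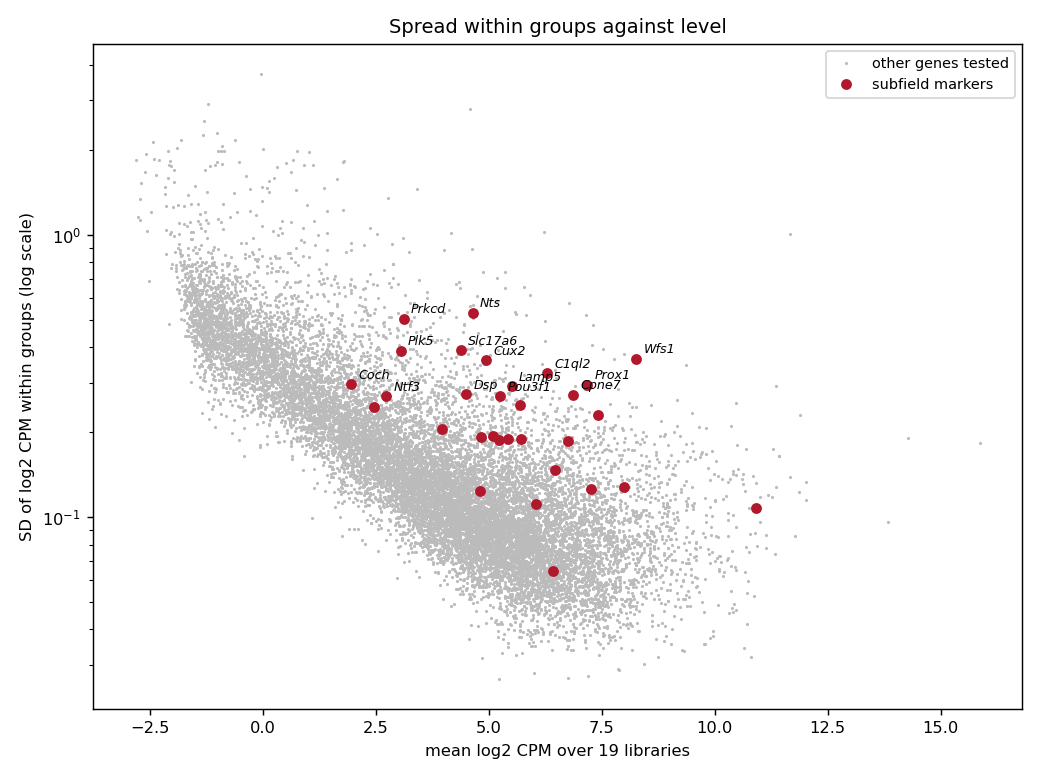
SD of log2 CPM within groups (log axis) against mean log2 CPM over 19 libraries, with the 31 tested markers in red and the other tested genes in grey. Most red points lie in the upper part of the grey cloud at their level, and Tle4, at 0.06, lies lowest among them.

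The lowest levels gathered in 3 animals, while the highest were spread over most libraries. Del/Dup replicate 2 held the lowest level of the 19 libraries for 10 of the 31 members (Prox1, C1ql2, Dsp, Pou3f1, Gpr161, Bok, Rgs14, Ntf3, Slc17a7 and Zbtb20) and the highest for 3 (Cux2, Rorb and Meis2). Del/+ replicate 2 held the lowest for 5 members (Stxbp6, Calb1, Plk5, Nectin3 and Amigo2) and the highest for Etv1. Dup/+ replicate 2 held the lowest for another 5 (Mpped1, Cux2, Rorb, Fezf2 and Meis2), and its dentate average was 0.14 above wt. Among wt libraries, replicate 2 held the highest level of C1ql2, Wfs1 and Pou3f1, and replicate 1 that of Prox1, Stxbp6, Bok and Slc17a7.

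Correlation between markers, of one region or of neighbouring ones, was examined over 13 of 16 listed pairs, with group means removed and permutations within groups. Of the 13, 2 passed a Benjamini-Hochberg adjusted p of 0.05. Prox1 and C1ql2 had r = 0.910 (n = 19, permutation p = 0.00021, adjusted 0.00273) and rho = 0.811 (permutation p = 0.00111, adjusted 0.00722), and r = 0.750 without Del/Dup replicates 2 and 3. Nts and Tle4 had r = 0.757 (permutation p = 0.00147, adjusted 0.00956) and rho = 0.746 (permutation p = 0.00109, adjusted 0.00722), and r = 0.658 without Del/+ replicate 3 and Del/Dup replicate 5. Among 11 wt and Dup/+ libraries, all of low multi-mapped share, r was 0.641 for Prox1 and C1ql2 (permutation p = 0.0496, adjusted 0.161) and 0.591 for Nts and Tle4 (permutation p = 0.0851, adjusted 0.221), and 0 of the 13 pairs passed. Prkcd and Tcf7l2 had r = 0.551 (permutation p = 0.0984, adjusted 0.256) and rho = 0.447 (permutation p = 0.121, adjusted 0.263). This r fell to 0.181 without Del/+ replicates 3 and 4, so that the relation rests on those libraries. Tcf7l2 and Slc17a6 ran in opposite directions, with r = -0.553 (permutation p = 0.0364, adjusted 0.119) and rho = -0.570 (permutation p = 0.0319, adjusted 0.128). Their r was -0.379 without Del/+ replicates 3 and 4. Prkcd and Slc17a6 had r = -0.128 (permutation p = 0.667, adjusted 0.667).

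**Figure D5:**
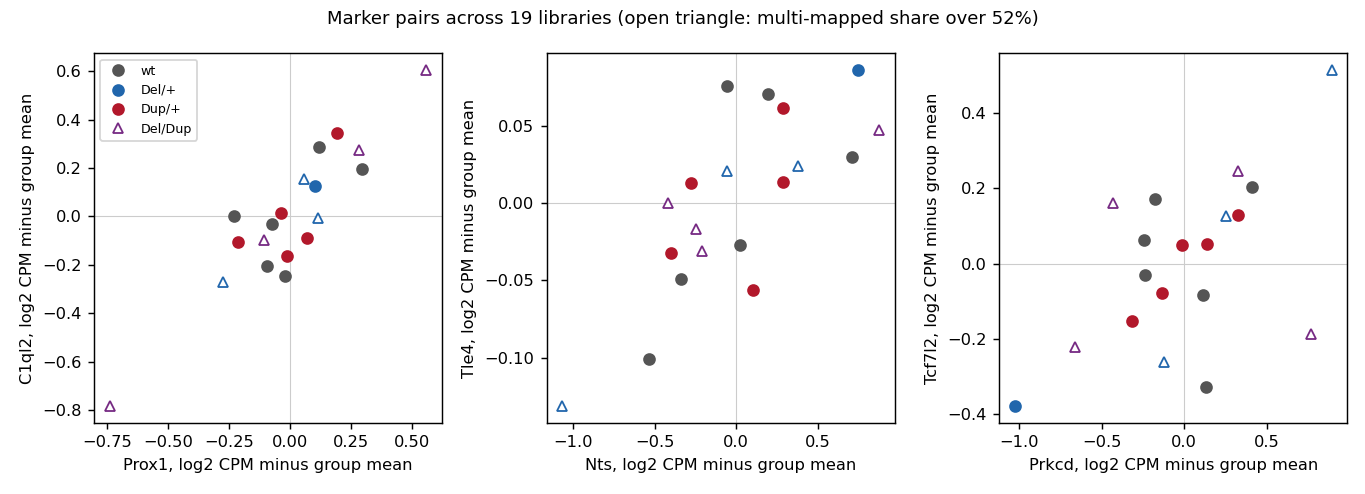
Log2 CPM minus the group mean in each of 19 libraries for Prox1 and C1ql2, Nts and Tle4, and Prkcd and Tcf7l2, coloured by group, with open triangles for a multi-mapped share over 52%. Prox1 and C1ql2 rise together (r = 0.910) with Del/Dup replicates 2 and 3 at the ends, while Prkcd and Tcf7l2 (r = 0.551) lean on Del/+ replicates 3 and 4.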

How the data were processed

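RNA from the hippocampus of 19 male rats was sequenced as 50-base single-end reads from stranded libraries. The labels name polyA RNA and the library protocol names removal of ribosomal RNA, which was not settled. According to the study's methods and the processing notes, the authors aligned reads with HISAT2 to the rat build rn6 (Ensembl release 96, bcl2fastq 2.17.1.14 upstream) and deposited raw HTSeq counts per gene, 1 table per library. The strand setting is not given in the sources used here. The 5 summary lines of each table were left out of library sizes: no feature took 6.944% to 16.08% of all lines, ambiguous 0.1418% to 0.3341% and multi-mapped 40.06% to 76.28%. Multi-mapped lines can count a read more than once.

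Counts were fitted in edgeR 4.0.16 (R 4.3.3) on all 19 libraries with a mean per group, after filterByExpr and TMM scaling, with prior count 2, the quasi-likelihood F test and Benjamini-Hochberg adjustment over 15440 genes. The standard error is the log2 fold change divided by the square root of F. The common biological coefficient of variation was 0.101. Limma 3.58.1 underlies edgeR, and DESeq2 1.42.0 was an alternative. Correlations used 99999 permutations within groups. A library was put in the high-share set when multi-mapped lines exceeded 52%, a line drawn from the values since no batch is labelled. On data simulated for Del/+ against wt over 15329 genes, 82 of 100 genes changed 1.5-fold and 93 of 100 changed 2-fold were called, with 7 false calls. The changed genes were drawn at random, and genes were simulated independently of one another. The members had a wider spread, with a median SD within groups of 0.246 beside 0.135 for all tested genes. These rates therefore need not hold for the members.

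Groups and replicate numbers came from the sample descriptions. Each library is 1 animal as far as the labels say, and no pair of libraries of one group agreed within counting noise. Replicate numbers were not treated as pairs in the main fit: of 24 same-numbered pairs, 2 had a correlation of deviations over 0.1. This check cannot exclude pairing, since pairs with different numbers were not compared. Every member held by symbol was named, those called or widest in spread were given by library, and other lists by counts with at most 3 called genes. The members and lists were chosen with earlier results of these data known. Transcript lengths were not used here, so levels were not compared between genes. Alternatives were other scalings and filters, DESeq2, a term for the multi-mapped share, Ttr as a covariate, the replicate block, relabelling wt replicate 5, fits on the compared groups or on 1 share class, and leaving out each library. The fits on 1 share class were not planned. One gene of a further dentate list is not reported here, and 4 of that list were averaged without it. No sequences were used.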

Additional observations from a re-analysis of the deposited data

Results flagged for a closer look

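Of 124 groups of 4 to 6 libraries examined, 1 for each tested member and genotype, 7 held a library that stood apart from the rest by Dixon's criterion, and chance sets apart about 1 group in 20. In wt, Wfs1 was 532.0 CPM in replicate 2, with the others at 264.5 to 361.2, and Coch was 3.961 CPM in replicate 5, whose labels conflict, with the others at 2.446 to 2.959. In Del/+, Prox1 was 103.3 CPM and Stxbp6 39.26 CPM in replicate 2, with the others at 129.9 to 135.2 and 49.91 to 50.93, and Dsp was 28.76 CPM in replicate 4, with the others at 20.83 to 21.25. In Dup/+, Amigo2 was 15.15 CPM in replicate 1, with the others at 16.92 to 17.21. In Del/Dup, Nts was 38.32 CPM in replicate 5, with the others at 15.59 to 18.07.

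For Prkcd the log2 change in Del/+ minus that in Dup/+ was 1.3108, the same quantity as Del/+ against Dup/+ (edgeR, adjusted p of 0.0367), with neither group called against wt, and the call is lost without Del/+ replicate 1, 2 or 3 or without any 1 Dup/+ library, with differences of 0.94 without Del/+ replicate 3 and 1.24 to 1.40 without one of the others.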

How the results depend on the processing

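The number of members called in Del/+ against wt was 0 in the fit reported, beside 119 of all genes. It became 4 with DESeq2, beside 626, and 1 with no filter on low counts (Prkcd), beside 108. In libraries of low multi-mapped share, where Del/+ is 1 library, the count moved too, with Slc17a6 at 1.24, Slc17a7 at -0.34 and Cpne7 at -0.81. With single libraries left out the count ran from 0 to 2. It was highest without Del/+ replicate 3 (Slc17a6 and Etv1), beside 148 of all genes, or Del/Dup replicate 2 (Prkcd and Slc17a6), beside 337. In Del/Dup against wt the count was 0 in the fit reported, beside 14 of all genes, and 2 with DESeq2, beside 179. With libraries left out it was 0 to 2, the 2 (Coch and Slc17a7) without Del/Dup replicate 3, beside 216. Among the 4 groups the count was 4 with DESeq2, beside 702 of all genes, and 1 with no filter, beside 148, where the fit reported called 127 of all genes. With libraries left out it was 0 to 2, the 2 without Del/Dup replicate 3, beside 416. The 1 call between Del/+ and Dup/+, beside 121 of all genes, became 0 when wt replicate 5 was counted as Dup/+, beside 103. It became 0 as well with the term for multi-mapped share (beside 51), the replicate block (beside 88) and only the groups compared (beside 108). With libraries left out the count ran from 0 to 1: the call was lost without Del/+ replicate 1, 2 or 3 or without any 1 Dup/+ library. In libraries of low share the Prkcd call was lost too, at 0.13 (adjusted p of 0.866), and the count stayed at 1 through Cpne7 (-0.95, adjusted p of 0.0123). The replicate block changed no other call. Under the settings not named here, Ttr as a covariate among them, the counts of calls were those reported. The 2 correlated pairs became 0 within libraries of low share, where fewer libraries were used. Apart from this, the cause of these changes was not tested. No called value changed sign. Of 155 differences of single members, 27 changed sign with the term for multi-mapped share, Prkcd in Del/+ against wt among them, and 22 with Ttr as a covariate. Scaling by library size or by DESeq2's size factors moved the median of all genes by less than 0.03 on the log2 scale.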
